A study of Homo sapiens with 8 samples.

Results

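The genes described here are 36 genes of ribosome biogenesis and of the MYC programme that were chosen by name, out of 19035 gene symbols in the expression table. All 36 had a mean of at least 1 TPM (a transcript level corrected for length and scaled to the same total in every library) and were tested among 11885 genes. The lowest was UTP20, at 7.78 ± 0.386 TPM in sgSETD1A and 8.18 ± 0.386 TPM in sgEmpty (SD, n = 3 each). Expression came from KPL-1, an established human breast cancer cell line with a doxycycline-inducible Cas9 (iCas9). The 3 sgSETD1A libraries were from cells with a guide against SETD1A, a histone methyltransferase gene, and are labelled as a knockout. The 3 sgEmpty libraries were the controls, from cells labelled wild type. Both groups had the Cas9 construct and were taken at day 7 of doxycycline, so both had received the drug. The labels do not say whether the line is a clone or whether replicates were separate cultures. The spread behind each p-value is that of these libraries and may be technical.

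Ribosomes are built in the nucleolus, where RNA polymerase I makes the long precursor of the ribosomal RNAs. Small nucleolar ribonucleoproteins (snoRNPs) guide its chemical modification, large assemblies of processing factors cut and fold it, and ribosomal proteins join it to form the small and the large subunit. MYC is a transcription factor that pairs with MAX, binds the E-box CACGTG, and is known to activate genes of ribosome biogenesis, ribosomal proteins and the synthesis of polyamines and nucleotides. MYC-driven ribosome production is a known feature of fast-growing tumour cells.

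The promoters below are those of the members with the largest called changes, SRM and ODC1 (the 2 largest rises) and NOB1 (the largest fall), shown because the E-box is the site that MYC and MAX are known to bind. The sequences are from RefSeq, build GRCh38.p14, and run from 250 bases before the annotated gene start to 50 bases after it, 300 bases each, on the minus strand in all 3 cases. Capitals mark matches to CACGTG or to CACGCG, a related sequence, on either strand (CACGTG is its own reverse complement, and CACGCG reads CGCGTG on the other strand). The windows are chr1:11059969-11060268, chr2:10448278-10448577 and chr16:69754877-69755176.
SRM: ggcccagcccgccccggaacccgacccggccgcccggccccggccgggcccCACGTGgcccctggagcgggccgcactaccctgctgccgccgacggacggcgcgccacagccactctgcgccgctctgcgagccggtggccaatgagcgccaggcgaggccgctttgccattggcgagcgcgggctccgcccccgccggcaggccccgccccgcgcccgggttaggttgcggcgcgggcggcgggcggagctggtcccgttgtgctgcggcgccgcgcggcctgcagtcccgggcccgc
ODC1: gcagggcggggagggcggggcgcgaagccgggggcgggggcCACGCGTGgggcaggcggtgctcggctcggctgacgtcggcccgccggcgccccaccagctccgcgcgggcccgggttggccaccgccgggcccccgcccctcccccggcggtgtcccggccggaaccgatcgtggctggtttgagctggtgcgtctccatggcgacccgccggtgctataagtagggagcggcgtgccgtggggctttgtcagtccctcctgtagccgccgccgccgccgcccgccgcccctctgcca
NOB1: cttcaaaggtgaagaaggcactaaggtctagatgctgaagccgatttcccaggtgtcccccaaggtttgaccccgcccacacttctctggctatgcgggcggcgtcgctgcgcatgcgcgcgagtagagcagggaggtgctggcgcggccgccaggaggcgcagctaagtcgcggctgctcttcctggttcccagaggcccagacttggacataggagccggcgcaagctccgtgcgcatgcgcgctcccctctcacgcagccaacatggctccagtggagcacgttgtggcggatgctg

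SRM has 1 CACGTG, whose first base lies at position -199 from the gene start. ODC1 has no CACGTG but has CACGCG in both orientations, at -209 and -207, as the overlapping run in capitals. NOB1 has neither run of letters in this window. Promoters were matched for 30 of the 36 members. MYC, BOP1, RRS1, NOP58, NOLC1 and RRP12 were not matched. Of the 30, 11 (36.7%) held CACGTG and 9 (30.0%) held CACGCG. Of all 35116 promoters of this length, 7.3% held CACGTG and 11.4% CACGCG, and of 8721 promoters matched by symbol to tested genes the shares were 10.6% and 18.7%. Among 63 promoters of ribosomal protein genes, 3 (4.8%) held CACGTG. A match is a run of letters and does not show that a factor binds there.

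Most of the members did not pass the test between the groups. Of the 36, 11 were higher in sgSETD1A, 1 was lower and 24 did not pass (limma on log2(TPM + 1), Benjamini-Hochberg adjusted p under 0.05 over all tested genes). That is 30.6% of members higher and 2.8% lower, beside 28.0% higher and 13.5% lower among all tested genes, so the share of rises was close to the background. The largest rises were those of the polyamine enzymes SRM and ODC1 and of the snoRNP protein NOP56, and the only called fall was that of the nuclease NOB1. MYC was lower in every sgSETD1A library but did not pass. The members had a median change of 0.05 log2, against 0.07 for all tested genes and -0.15 for 79 cytosolic ribosomal protein genes. The median of all genes is above 0, and median-ratio rescaling, which removes this offset, gave 5 members higher and 6 lower (background 14.9% and 19.6%). Quantile normalization gave 11 higher and 5 lower (background 18.0% and 17.3%), and TPM rescaled to its total without ribosomal protein genes gave 7 higher and 6 lower (background 17.9% and 17.5%). Each TPM value is a share of the RNA in a library, and in such bulk samples less RNA per cell cannot be told apart from fewer cells that express a gene.

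**Figure D1:**
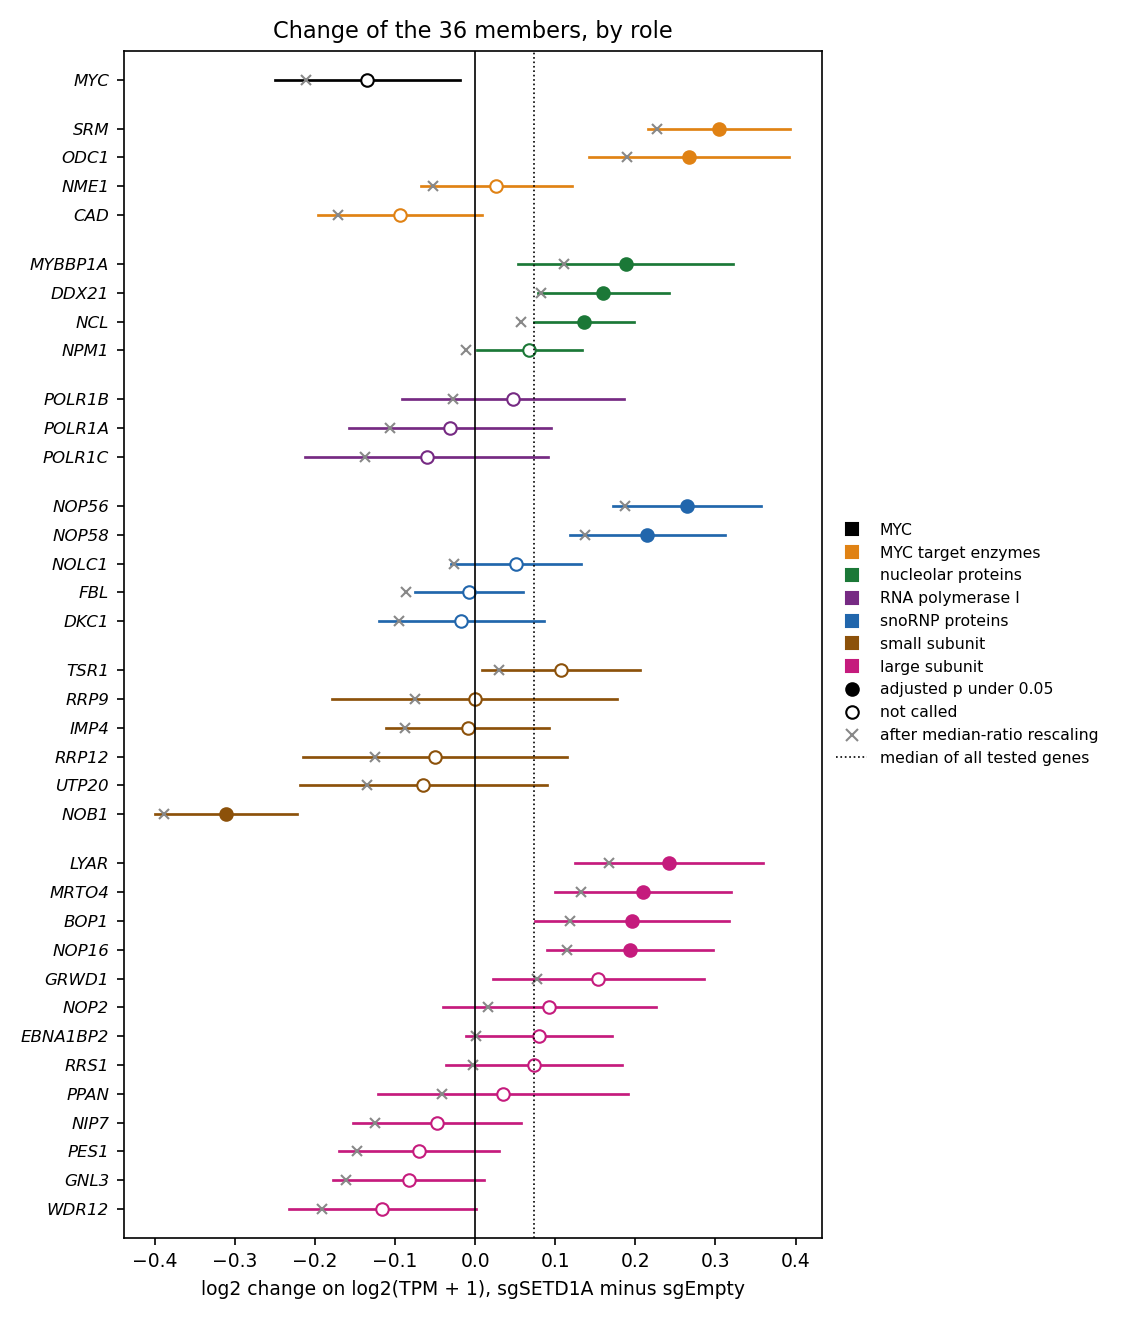
Change of each of the 36 members on the log2(TPM + 1) scale, sgSETD1A minus sgEmpty, grouped by role; points are limma estimates with 95% confidence intervals (n = 3 each), filled where the adjusted p was under 0.05, and crosses give the estimate after median-ratio rescaling. The dotted line marks the median of all tested genes at 0.07; changes run from -0.31 (NOB1) to 0.30 (SRM).

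The targeted gene was lower in the libraries labelled as knockout. SETD1A had 9.36, 11.3 and 10.7 TPM in sgSETD1A libraries, against 17.5, 17.5 and 18.1 TPM in sgEmpty libraries, a change of -0.71 log2 (limma adjusted p = 9.13e-05). Libraries listed 11769 to 11961 genes at 1 TPM or more, and their sequencing depth is unknown, because TPM keeps no depth. All 7 luminal epithelial markers were expressed, with KRT8 at 6885 ± 190 TPM in sgSETD1A and 6214 ± 252 TPM in sgEmpty (SD, n = 3 each). They summed to 16120 to 16630 TPM in sgSETD1A and 14160 to 15230 TPM in sgEmpty. With TPM as deposited 5 of the 7 were higher (71.4%, beside 28.0% of all tested genes) and 1 had a negative estimate. After median-ratio rescaling 3 were higher and 1 lower (42.9% and 14.3%, beside 14.9% and 19.6%). Quantile normalization gave 5 higher and 1 lower (71.4% and 14.3%, beside 18.0% and 17.3%). TPM without ribosomal protein genes gave 4 higher and 1 lower (57.1% and 14.3%, beside 17.9% and 17.5%). The part of these markers in the results was not tested. The immune markers reported here summed to 0.165 to 0.509 TPM in sgSETD1A and 0.0895 to 0.443 TPM in sgEmpty. The 3 endothelial markers summed to at most 0.0983 TPM in sgSETD1A and 0.133 TPM in sgEmpty, and the 5 fibroblast markers to 2.45 to 4.16 TPM in sgSETD1A and 2.58 to 3.10 TPM in sgEmpty, nearly all from COL1A1, with DCN at 0. Replicate 1 of sgSETD1A stood apart from the other libraries of its group on the second principal component, at 12.8 against -5.61 and -6.55.

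MYC itself had 38.9, 43.6 and 43.0 TPM in sgSETD1A libraries, against 45.9, 45.2 and 46.8 TPM in sgEmpty libraries. The groups did not overlap, and the lowest value was in sgSETD1A replicate 1. The change was -0.13 log2 with a 95% confidence interval from -0.25 to -0.02 (limma, unadjusted p = 0.0272, adjusted p = 0.0612). Without sgSETD1A replicate 1 it was -0.08 (limma adjusted p = 0.130). MYC passed as lower after each of the 3 rescalings, at -0.21 log2 after median-ratio rescaling (limma adjusted p = 0.00867), -0.17 after quantile normalization (limma adjusted p = 0.0210) and -0.19 with the ribosomal protein genes taken out of the total (limma adjusted p = 0.0180).

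Among the relatives of MYC, MYCN, a paralog that is best known from neuroblastoma, was at 2.03, 1.99 and 2.04 TPM in sgSETD1A libraries, against 0.781, 0.840 and 1.08 TPM in sgEmpty libraries, levels below those of MYC. Its sgEmpty mean of 0.899 TPM was under the minimum of 1 TPM, so it entered the test only through sgSETD1A, where it is high, and its call is not read as support. MAX, the partner of MYC, averaged 47.6 ± 2.33 TPM in sgSETD1A and 50.1 ± 2.01 TPM in sgEmpty (SD, n = 3 each) and did not pass (limma adjusted p = 0.274). Of 12 genes of the MYC and MAX network, 3 were called higher and none lower (25.0% and 0.0%, beside 28.0% and 13.5% of all tested genes). These were MYCN, MXD1 (0.22 log2), a partner of MAX that represses, and MLX (0.22 log2), a MAX-like protein. Because the 25.0% includes MYCN, it is not read as a result about the network. After median-ratio rescaling neither MXD1 nor MLX passed (limma adjusted p = 0.107 and 0.0586), and 2 of the 12 were lower (16.7%, beside 19.6% of all tested genes). MLX passed as higher after quantile normalization and with TPM without ribosomal protein genes (limma adjusted p = 0.0229 and 0.0334). MXD1 passed in neither (limma adjusted p = 0.111 and 0.0749).

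Of 4 metabolic enzymes known as MYC targets, 2 rose and 2 did not pass, beside 28.0% higher and 13.5% lower among all tested genes. SRM, spermidine synthase, had 110.9, 114.5 and 116.2 TPM in sgSETD1A libraries, against 95.6, 90.4 and 89.9 TPM in sgEmpty libraries. Every sgSETD1A library lay above every sgEmpty library, and the rise was 0.30 log2 (SE 0.039; limma adjusted p = 3.96e-04). ODC1, ornithine decarboxylase, which controls the entry into polyamine synthesis, had 73.5, 64.9 and 64.7 TPM in sgSETD1A libraries, against 54.8, 58.2 and 55.1 TPM in sgEmpty libraries. Its groups did not overlap either, with sgSETD1A replicate 1 the highest, and the rise was 0.27 log2 (SE 0.056; limma adjusted p = 0.00475). NME1, a nucleoside diphosphate kinase, had 511.5, 481.9 and 452.5 TPM in sgSETD1A libraries, against 471.3, 476.9 and 469.9 TPM in sgEmpty libraries. These groups overlapped, with a 95% interval of the change from -0.07 to 0.12 log2, and because NME1 resembles its neighbour NME2 the level of each is uncertain. CAD, which catalyses the first steps of pyrimidine synthesis, averaged 48.3 ± 1.26 TPM in sgSETD1A and 51.6 ± 2.14 TPM in sgEmpty (SD, n = 3 each), a change of -0.09 log2 (limma adjusted p = 0.126). CAD passed as lower after all 3 rescalings.

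Of the 5 snoRNP genes, 2 rose and 3 did not pass (40.0% higher, beside 28.0% of all tested genes). NOP56, a core protein of the box C/D snoRNPs that methylate ribosomal RNA, had 94.4, 95.6 and 95.3 TPM in sgSETD1A libraries, against 76.2, 77.9 and 82.9 TPM in sgEmpty libraries, which is higher by 0.27 log2 (SE 0.041; limma adjusted p = 0.00105). NOP58, its partner in the same particle, had 112.0, 112.4 and 108.9 TPM in sgSETD1A libraries, against 90.2, 98.0 and 98.7 TPM in sgEmpty libraries, a rise of 0.22 log2 (limma adjusted p = 0.00396). Neither gene's groups overlapped, and both rises passed in all 15 alternative settings. FBL, fibrillarin, the methyltransferase of that particle, had 217.6, 216.6 and 222.4 TPM in sgSETD1A libraries, against 222.2, 219.8 and 218.0 TPM in sgEmpty libraries. Its groups overlapped and the 95% interval of its change ran from -0.07 to 0.06 log2, while after quantile normalization it was called lower (-0.08 log2; limma adjusted p = 0.0498). The difference between FBL and its partners was not tested. The change of DKC1, the pseudouridine synthase of the box H/ACA particles, was -0.02 log2 (limma adjusted p = 0.782). That of NOLC1, which assists the assembly of snoRNPs, was 0.05 log2 (limma adjusted p = 0.279).

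**Figure D2:**
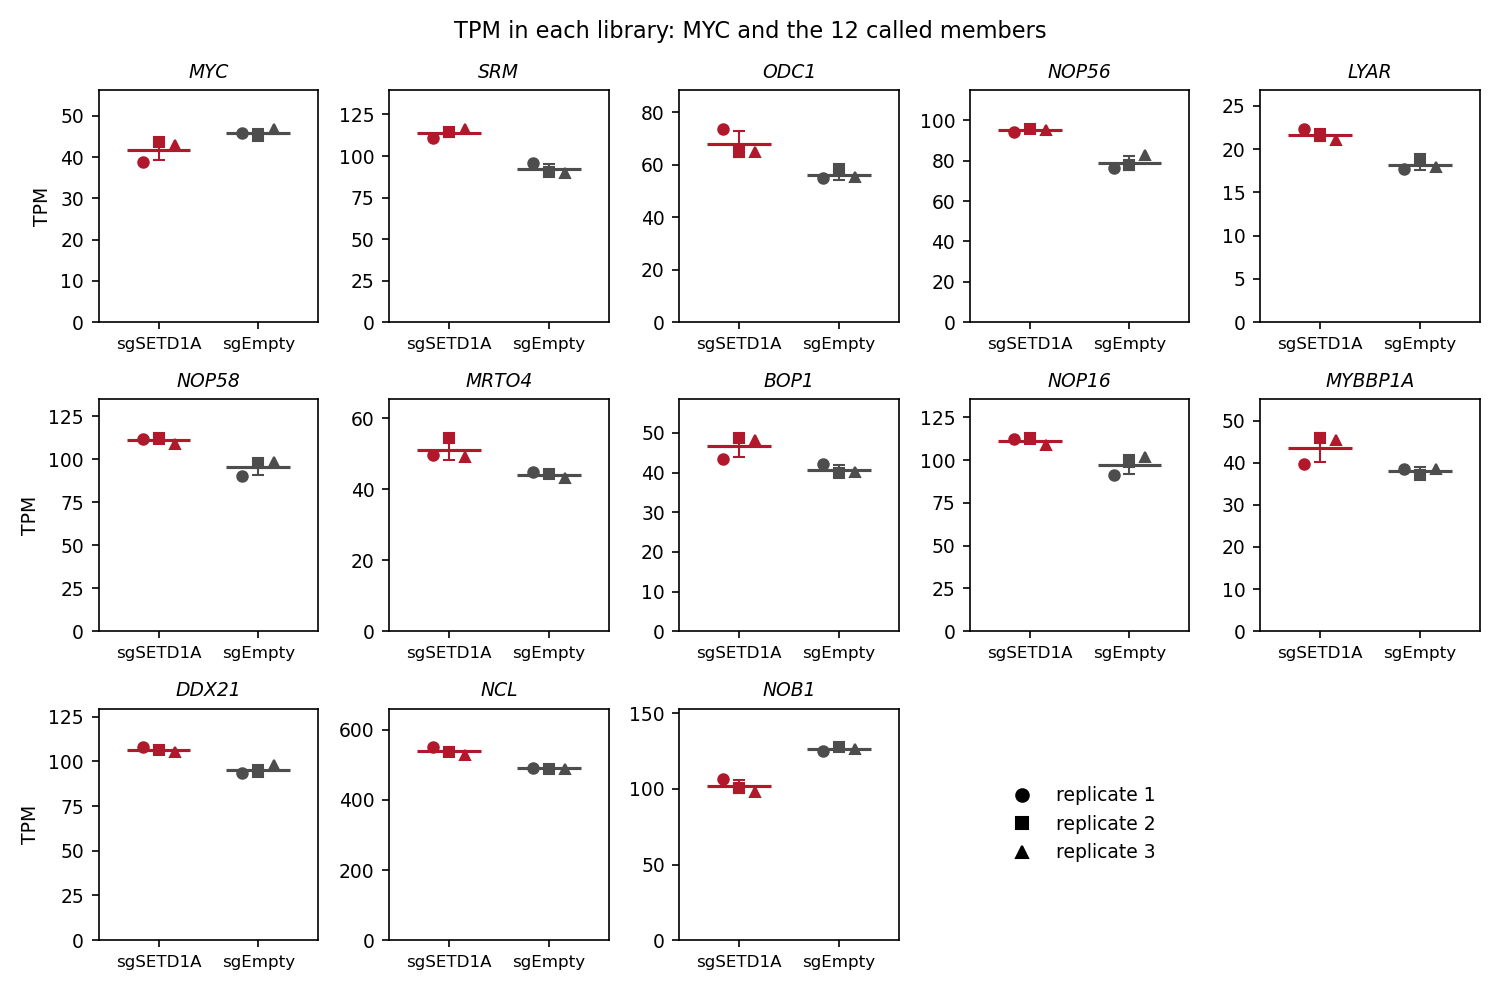
TPM in each library for MYC, the 11 members called higher and NOB1, sgSETD1A on the left and sgEmpty on the right of each panel; symbols are libraries, lines means and bars SD (n = 3 each), and each axis starts at 0. In each of the 13 panels the groups do not overlap, and MYC and NOB1 are the ones that are lower in sgSETD1A. Apart from MYC the genes shown were chosen by their call. Among all tested genes the groups did not overlap for 36.4% that were higher and 17.3% that were lower.

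Of 4 genes for abundant nucleolar proteins, 3 rose with TPM as deposited (75.0%, beside 28.0% of all tested genes). None passed after median-ratio rescaling (background 14.9% higher and 19.6% lower) or with TPM without ribosomal protein genes (background 17.9% and 17.5%). After quantile normalization 3 were higher (75.0%, beside 18.0% of all tested genes), namely NPM1, DDX21 and MYBBP1A. NCL passed after none of the 3 rescalings. NPM1, nucleophosmin, a chaperone of the nucleolus, was the most abundant member, with 2267, 2130 and 2165 TPM in sgSETD1A libraries, against 2047, 2100 and 2114 TPM in sgEmpty libraries. The groups did not overlap, but the change of 0.07 log2 did not pass (95% interval 0.00 to 0.13; limma adjusted p = 0.0893). It was -0.01 log2 after median-ratio rescaling and was called higher after quantile normalization (0.12 log2; limma adjusted p = 0.00880). Processed copies of NPM1 elsewhere in the genome make its level uncertain. NCL, nucleolin, had 550.7, 536.0 and 529.0 TPM in sgSETD1A libraries, against 491.7, 489.4 and 488.8 TPM in sgEmpty libraries, which is higher by 0.14 log2 (SE 0.028; limma adjusted p = 0.00423). DDX21, an RNA helicase that acts on ribosomal RNA, had 108.0, 106.2 and 105.2 TPM in sgSETD1A libraries, against 93.6, 93.9 and 98.1 TPM in sgEmpty libraries, a rise of 0.16 log2 (limma adjusted p = 0.00723). MYBBP1A, a nucleolar protein that binds MYB, had 39.6, 45.9 and 45.4 TPM in sgSETD1A libraries, against 38.6, 37.2 and 38.5 TPM in sgEmpty libraries, a rise of 0.19 log2 (limma adjusted p = 0.0311). Replicate 1 of sgSETD1A lay close to the sgEmpty values there. After median-ratio rescaling the changes of NCL, DDX21 and MYBBP1A were 0.06, 0.08 and 0.11 log2 (limma adjusted p = 0.186, 0.118 and 0.162). MYBBP1A also missed the threshold in every fit that left out a library other than sgSETD1A replicate 1 (limma adjusted p from 0.0603 to 0.106).

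None of the 3 RNA polymerase I subunit genes passed. POLR1A, the largest subunit, averaged 16.7 ± 0.746 TPM in sgSETD1A and 17.1 ± 0.511 TPM in sgEmpty (SD, n = 3 each), with a 95% interval of the change from -0.16 to 0.09 log2. The second subunit POLR1B had an interval from -0.09 to 0.19. That of POLR1C, which RNA polymerase III also uses, ran from -0.21 to 0.09. The groups overlapped for all 3 genes.

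Factors of the small subunit included the only called fall, 1 of 6 genes (16.7%, beside 13.5% of all tested genes). NOB1, the endonuclease that makes the mature end of the small subunit RNA, had 106.5, 100.9 and 98.1 TPM in sgSETD1A libraries, against 125.1, 127.7 and 126.6 TPM in sgEmpty libraries. Every sgSETD1A library lay below every sgEmpty library, and the change was -0.31 log2 (SE 0.039; limma adjusted p = 3.49e-04), between -0.39 and -0.28 over 15 alternatives, all of which kept the call. IMP4, a protein of the U3 snoRNP, which cuts the precursor early, had 125.6, 126.0 and 124.0 TPM in sgSETD1A libraries, against 134.3, 119.0 and 125.2 TPM in sgEmpty libraries. The sgEmpty values spread on both sides of the sgSETD1A values, and the 95% interval of the change was -0.11 to 0.09 log2. TSR1, which acts late in small subunit assembly, was higher in each sgSETD1A library and did not pass (0.11 log2; limma adjusted p = 0.0765). RRP9, a U3 protein, UTP20, a part of the early processing complex, and RRP12, which takes part in export of the precursor, had changes of -0.00, -0.07 and -0.05 log2 with overlapping groups.

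Factors of the large subunit gave 4 rises among 13 genes (30.8%, beside 28.0% of all tested genes), a share close to the background. After median-ratio rescaling 1 of the 13 was higher and 3 were lower (7.7% and 23.1%, beside 14.9% and 19.6%). LYAR, a nucleolar zinc finger protein, had 22.3, 21.6 and 21.0 TPM in sgSETD1A libraries, against 17.7, 18.8 and 17.9 TPM in sgEmpty libraries, a rise of 0.24 log2 (limma adjusted p = 0.00571). MRTO4, which holds the place of a stalk protein during assembly, had 49.7, 54.4 and 49.1 TPM in sgSETD1A libraries, against 44.7, 44.1 and 43.1 TPM in sgEmpty libraries, a rise of 0.21 log2 (limma adjusted p = 0.00836). NOP16, a nucleolar protein known to act in large subunit assembly, had 112.5, 112.9 and 108.9 TPM in sgSETD1A libraries, against 91.3, 98.8 and 102.1 TPM in sgEmpty libraries, a rise of 0.19 log2 (limma adjusted p = 0.00915). In these 3 genes the groups did not overlap. Of the 3, only LYAR passed after median-ratio rescaling; NOP16 (limma adjusted p = 0.0819) and MRTO4 (limma adjusted p = 0.0634) did not.

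BOP1, PES1 and WDR12 encode the 3 proteins of the PeBoW complex, which processes the large subunit RNA. BOP1 had 43.4, 48.7 and 48.3 TPM in sgSETD1A libraries, against 42.1, 39.9 and 40.1 TPM in sgEmpty libraries, a rise of 0.20 log2 (limma adjusted p = 0.0173). It missed the threshold without sgSETD1A replicate 2 or 3, or sgEmpty replicate 2 or 3 (limma adjusted p from 0.0565 to 0.0648), and after median-ratio rescaling (0.109). BOP1 also missed it with TPM without ribosomal protein genes (limma adjusted p = 0.0618) but passed after quantile normalization (limma adjusted p = 0.0344). PES1 had 37.0, 37.9 and 38.2 TPM in sgSETD1A libraries, against 41.1, 38.6 and 39.1 TPM in sgEmpty libraries, and WDR12 had 23.7, 24.1 and 22.8 TPM in sgSETD1A libraries, against 26.8, 24.7 and 25.3 TPM in sgEmpty libraries. Both were lower in each sgSETD1A library without passing (-0.07 and -0.12 log2; limma adjusted p = 0.233 and 0.0995), and both were called lower after median-ratio rescaling (-0.15 and -0.19 log2; limma adjusted p = 0.0302 and 0.0183). With TPM without ribosomal protein genes both were also called lower (limma adjusted p = 0.0497 and 0.0271). After quantile normalization WDR12 was called lower (limma adjusted p = 0.0397) and PES1 did not pass (limma adjusted p = 0.106). The estimate of BOP1 and those of its 2 partners had opposite signs with TPM as deposited and after median-ratio rescaling, a difference that was not tested.

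The other 7 large subunit factors did not pass. GRWD1, a chaperone of a ribosomal protein, came nearest (0.15 log2; limma adjusted p = 0.0596) and passed without sgSETD1A replicate 1 (0.19 log2; limma adjusted p = 0.0315). GNL3, nucleostemin, had a change of -0.08 log2 and was lower after median-ratio rescaling (limma adjusted p = 0.0133). NOP2, a methyltransferase of the large subunit RNA, RRS1, which helps to load the 5S particle, and the assembly factors EBNA1BP2, PPAN and NIP7 lay between -0.05 and 0.09 log2. In a count over all 36 members, the groups did not overlap for 16 genes that were higher (44.4%) and 6 that were lower (16.7%), beside 36.4% and 17.3% of all tested genes.

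A wider list of ribosome biogenesis genes, chosen by function but with earlier results of these data known, held 111 genes, all of them tested. Of these 25 rose (22.5%) and 9 fell (8.1%), with a median change of 0.06 log2, beside 28.0% and 13.5% of all tested genes and their median of 0.07. By role, 17 of 47 large subunit factors rose and 5 fell (36.2% and 10.6%). Of 40 small subunit factors 7 rose and 2 fell (17.5% and 5.0%). Of 11 snoRNP factors 1 rose and 1 fell (9.1% each), and of 13 RNA polymerase I factors none rose and 1 fell (0.0% and 7.7%). After median-ratio rescaling 4 of the 47 rose and 9 fell (8.5% and 19.1%, beside 14.9% and 19.6% of all tested genes). Of the 40, 3 then rose and 4 fell (7.5% and 10.0%). None of the 11 or the 13 then rose, and 2 of each fell (18.2% and 15.4%). Without sgSETD1A replicate 3, 14 of the 111 rose, and 15 rose without sgEmpty replicate 1 or 2. Of all tested genes, 2435 rose without sgSETD1A replicate 3, against 3327 with all libraries. Without sgEmpty replicate 1 or 2 these were 2810 and 2361. After median-ratio rescaling 7 of the 111 rose and 17 fell (6.3% and 15.3%, beside 14.9% and 19.6% of all tested genes). RRP7A, a small subunit processing factor, rose by 0.64 log2, with 39.2 ± 0.239 TPM in sgSETD1A and 24.9 ± 1.36 TPM in sgEmpty (SD, n = 3 each; limma adjusted p = 3.04e-05). NOC4L rose by 0.39 and NOL6 by 0.37 log2, both also small subunit factors. RUVBL1, a helicase-like protein that assists snoRNP assembly and chromatin remodelling, averaged 38.9 ± 0.837 TPM in sgSETD1A and 64.0 ± 4.38 TPM in sgEmpty (SD, n = 3 each), a change of -0.70 log2 (limma adjusted p = 2.34e-05). The nucleolar protein NOL8 changed by -0.49 log2, and FCF1, a part of the early small subunit complex, by -0.37 log2. These were the 3 largest called rises and the 3 largest called falls of the list, and all 6 passed after each rescaling.

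Other genes known as MYC targets, 21 of 22 tested (TERT was below the minimum), split into 6 rises and 3 falls (28.6% and 14.3%, beside 28.0% and 13.5% of all tested genes), with a median of 0.01 log2. SMS, spermine synthase, the enzyme after SRM in the polyamine pathway, had 160.4, 145.7 and 143.6 TPM in sgSETD1A libraries, against 118.4, 118.1 and 120.9 TPM in sgEmpty libraries, and rose by 0.33 log2 (limma adjusted p = 5.74e-04). AMD1, which supplies the other substrate of both synthases, had a change of 0.10 log2 and did not pass (limma adjusted p = 0.130). CTPS1 (listed as CTPS), which makes cytidine triphosphate, and the translation initiation factor EIF4E rose by 0.22 and 0.21 log2. PHB2, a mitochondrial scaffold protein, changed by -0.30, IMPDH2, which acts in guanine nucleotide synthesis, by -0.21 and SHMT2, a mitochondrial enzyme of serine use, by -0.17 log2. After median-ratio rescaling 2 of the list were higher and 7 lower (9.5% and 33.3%, beside 14.9% and 19.6% of all tested genes).

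Ribosomal protein genes encode the proteins that the factors above assemble with ribosomal RNA, which was not analysed here. Of 79 cytosolic ribosomal protein genes, 59 fell (74.7%) and 1 rose (1.3%), beside 13.5% and 28.0% of all tested genes, and their median was -0.15 log2. Together they took 23.9%, 23.8% and 23.8% of all TPM in sgSETD1A libraries, against 26.1%, 27.1% and 26.9% in sgEmpty libraries. RPL36A changed by -0.36, RPS2 by -0.35 and RPL7A by -0.32 log2, and RPL21 was the 1 that rose (0.09 log2; limma adjusted p = 0.0410). The rise of RPL21 did not pass after median-ratio rescaling (limma adjusted p = 0.877) but passed after quantile normalization (0.16 log2, limma adjusted p = 0.00372). Of the 79 genes, 71 were lower after median-ratio rescaling (89.9%, beside 19.6% of all tested genes). Quantile normalization gave 41 lower and 5 higher (51.9% and 6.3%, beside 17.3% and 18.0%), and TPM without ribosomal protein genes gave 69 lower (87.3%, beside 17.5%). Values of single ribosomal protein genes are uncertain, since many have near-identical pseudogene copies.

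**Figure D3:**
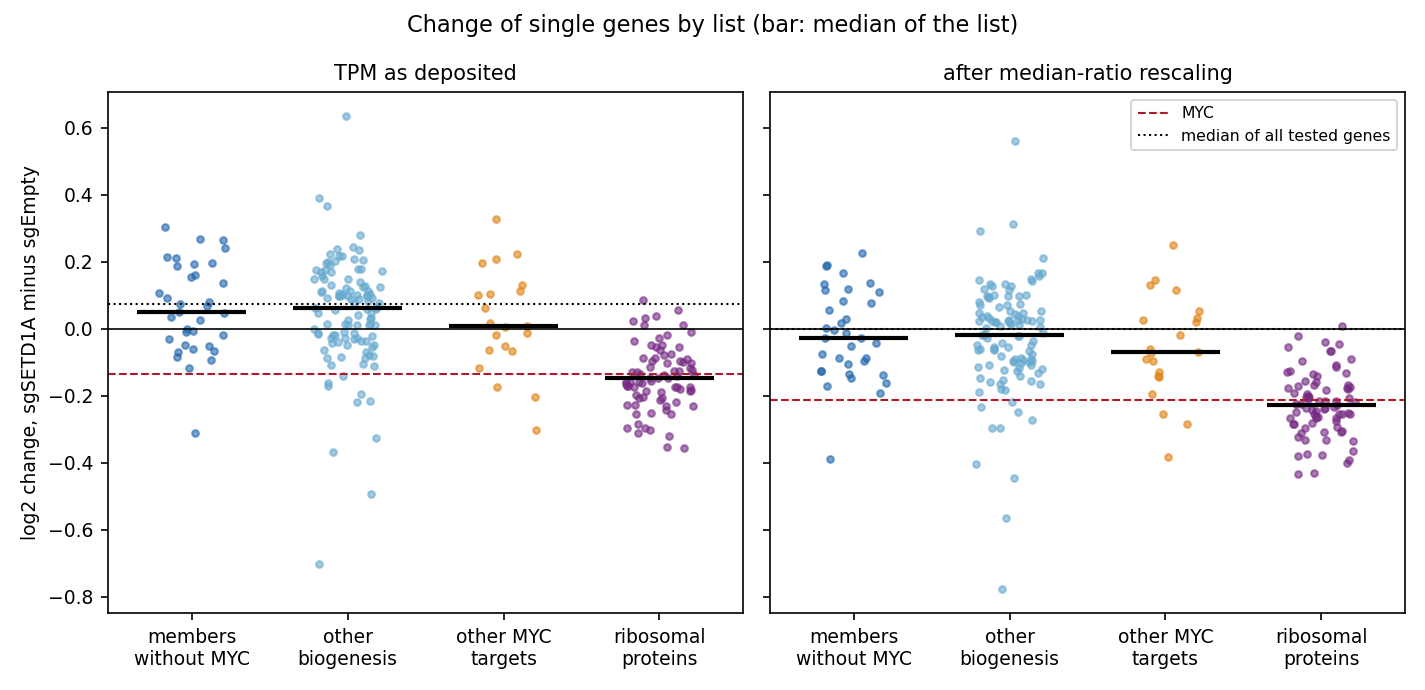
Change of each gene, sgSETD1A minus sgEmpty, for 35 members without MYC, 111 other biogenesis genes, 21 other MYC targets and 79 ribosomal protein genes, for deposited TPM (left) and median-ratio rescaled TPM (right); points are genes and bars list medians. With TPM as deposited the medians are 0.05, 0.06, 0.01 and -0.15 log2, MYC (dashed) lies at -0.13 and the median of all tested genes (dotted) at 0.07.

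Set beside MYC and the ribosomal protein genes, most of the other members lay above both with TPM as deposited. Of the 35 members other than MYC, 34 had a change above that of MYC and 34 above the ribosomal protein median, and NOB1 was the exception to each. Against the median of all tested genes, 16 of the 35 lay above it and 19 below, while 1 of the 79 ribosomal protein genes lay above it. MYC and the ribosomal protein median themselves lay below the median of all tested genes, and the share of all genes above each was not counted. After quantile normalization the ribosomal protein median was -0.091 log2, and UTP20, RRP12, PES1, WDR12, GNL3, CAD and POLR1C also lay below it. The median of the 35 members was 0.20 log2 above that of the ribosomal protein genes with TPM as deposited, also 0.20 with median-ratio rescaling, and 0.10 with quantile normalization. It was 0.19, 0.18 and 0.18 log2 above MYC in the same order. Members were not replicates of a condition, so no test was made of these distances.

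In single libraries with TPM as deposited, the members' median lay above both MYC and the ribosomal protein median in each sgSETD1A library, while MYC lay below the ribosomal protein median in replicate 1 and above it in replicates 2 and 3. The median deviation of the 35 members from their sgEmpty means was 0.04, 0.08 and 0.05 log2 in sgSETD1A replicates 1 to 3, and between -0.01 and 0.01 in the sgEmpty libraries. That of the ribosomal protein genes was -0.15, -0.16 and -0.15 log2 in sgSETD1A and between -0.03 and 0.02 in sgEmpty. MYC deviated by -0.23, -0.07 and -0.09 log2 in sgSETD1A and by -0.02 to 0.03 in sgEmpty. Summed TPM of the 35 genes was 5315, 5165 and 5132 in sgSETD1A libraries, against 4923, 4952 and 4987 in sgEmpty libraries, a sum to which NPM1 gives the largest part. Without NPM1 it was 3048, 3035 and 2966 TPM in sgSETD1A libraries, against 2877, 2852 and 2873 TPM in sgEmpty libraries, again with no overlap. These sums carry the offset of deposited TPM, in which the median of all tested genes was 0.07 log2, and after median-ratio rescaling the median change of the 35 members was -0.03 log2.

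**Figure D4:**
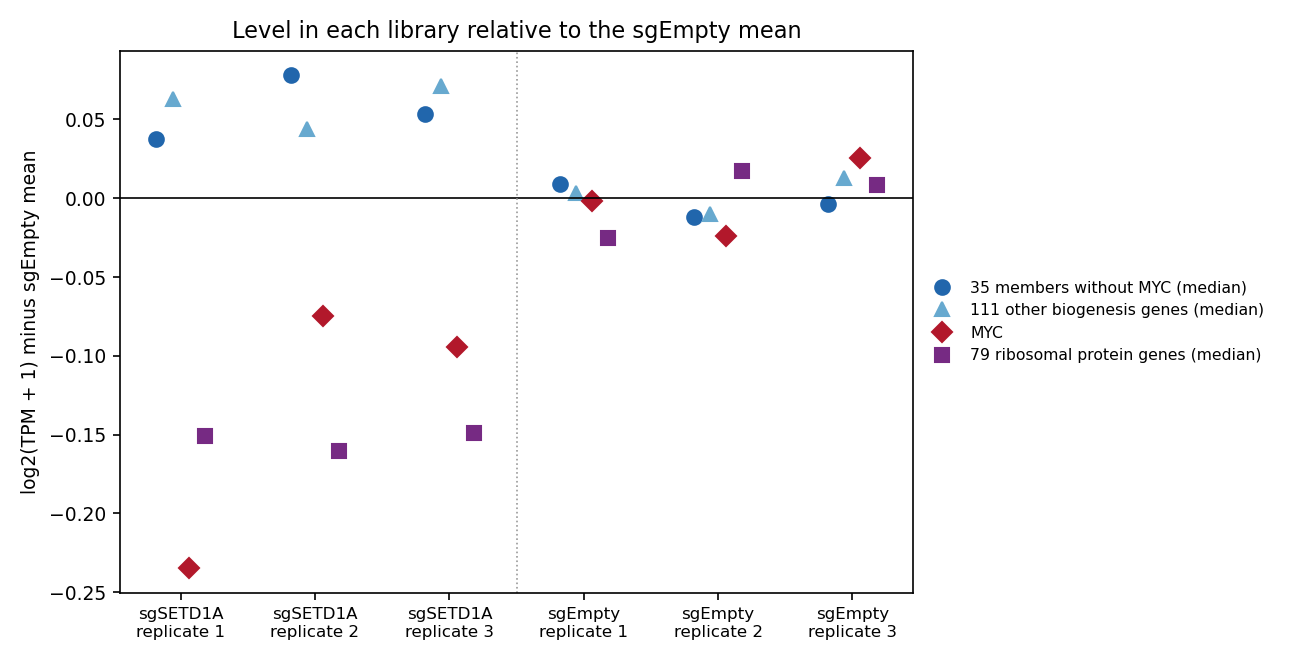
Level in each library relative to the sgEmpty mean, on the log2(TPM + 1) scale, for MYC and for the medians of 35 other members, 111 other biogenesis genes and 79 ribosomal protein genes; sgSETD1A libraries are on the left and sgEmpty libraries on the right. With TPM as deposited, where the median change of all tested genes is 0.07, both biogenesis medians lie above 0 in the 3 sgSETD1A libraries (after median-ratio rescaling the list medians of the change are -0.03 and -0.02), and MYC (-0.23 to -0.07) and the ribosomal protein median (-0.16 to -0.15) lie below it.

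Promoter windows with and without the E-box were both found among members that rose. The 11 members with CACGTG had a median change of 0.03 log2, from -0.07 to 0.30, with 3 rises and no fall. The 19 without it had a median of 0.05 log2, from -0.31 to 0.27, with 6 rises and 1 fall. Among all tested genes 28.0% rose and 13.5% fell, so these counts are not read as a result about the E-box. Within the snoRNP particle, FBL held a CACGTG starting at base 7 after the gene start and had overlapping groups, while NOP56 held none in this window and rose, a contrast picked after the values were seen.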

How the data were processed

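The deposited expression table held TPM, a signal that the authors scaled to a common total of 1000000 per library, for 19035 gene symbols in 6 libraries. Its last row had no gene name, held the column total (100% of it) and was left out. RSEM 1.3.1, STAR 2.6.0c, bcl2fastq 2.20.0 and the build hg19 are listed, without roles, per the submitters' processing notes. TPM keeps no depth, so no count test was run. The table of guide counts held no guide for these genes and was not used here.

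Genes with a mean of at least 1 TPM entered limma 3.58.1 (R 4.3.3) as log2(TPM + 1), with a trended prior variance; this scale understates changes of low genes. The fit had no replicate block. Benjamini-Hochberg adjustment ran over all tested genes, with calls at an adjusted p under 0.05. The method was tested on simulated data. Alternatives were pseudocounts of 0.1 and 5, no filter (any TPM above 0), a mean of at least 5 TPM, 3 rescalings (median-ratio, quantile, and TPM without ribosomal protein genes), no trend, a replicate block and leaving out each library. Of 280 listed genes, 266 matched by symbol and 14 as RefSeq synonyms.

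The members and lists were chosen with earlier results of these data known. Values by library are given for MYC, every called member and the 4 uncalled members with the highest TPM, with PES1 and WDR12 added after their values were seen; in other lists the 3 largest called rises and falls are named, with AMD1 and MAX added likewise. One immune marker is not reported here.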

Additional observations from a re-analysis of the deposited data

How the results depend on the processing

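Scaling moved the results most. After median-ratio rescaling 5 members were higher and 6 lower, with a median of -0.027 log2; after quantile normalization 5 were lower (median 0.0027), and with TPM without ribosomal protein genes 7 were higher and 6 lower (median -0.0045). In that order of the 3 rescalings, MYC changed by -0.21, -0.17 and -0.19 log2, the ribosomal protein median was -0.23, -0.091 and -0.20 with 0, 5 and 0 genes higher, and the other biogenesis genes had medians of -0.0175, 0.0219 and 0.0057, with 7, 13 and 11 higher. Of these genes 17 were lower after median-ratio rescaling and 14 with TPM without ribosomal protein genes. Of all tested genes, 1766, 2142 and 2128 were higher and 2333, 2056 and 2077 lower. Over all tested genes the median was then -0.0001, 0.02 and 0.02, against 0.07 with TPM as deposited. Beyond these shifts of scale, the cause was not tested.

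The calls of SRM, ODC1, NOP56, NOP58, LYAR and NOB1 were kept in all 15 alternatives, and no call of a member changed direction. Pseudocounts and the filter at 5 TPM kept all 12 calls. RPL21, the 1 ribosomal protein gene that was higher, was lost with no filter (0), with no trend (0) and with the replicate block (0). Leaving out single libraries gave 0 to 1 ribosomal protein genes higher (median -0.16 to -0.14), 14 to 27 other biogenesis genes higher (median 0.0459 to 0.0673) and 9 to 12 members higher. In the same fits 2361 to 3459 of all tested genes were higher.

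Replicate numbers are shared by the groups, but the deviations of same-numbered libraries had correlations of 0.0845, -0.104 and 0.169 across genes, and not every library correlated best with its own number, so the numbers were not taken to pair them. With the replicate block 11 members were higher and 1 lower, the same 12 genes. In that fit 3103 of the 11885 tested genes were higher and 1539 lower. The depth of the libraries is unknown, and 3 libraries a group limit the precision.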
